A study of Bubalus bubalis with 9 samples.

Results

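The inhibin, activin and follistatin system is described here by 8 genes of 20801 in the authors' deposited tables. The genes were taken by name, as a set chosen with earlier results of these data known, and all 8 were found and tested in each of the 3 comparisons. They encode the inhibin and activin subunits (INHA, INHBA, INHBB), secreted activin antagonists (FST, FSTL3) and activin receptors (ACVR1B, ACVR2A, ACVR2B). The sequenced RNA came from ovaries of Chinese buffalo (Bubalus bubalis), from granulosa cells, which surround the oocyte and secrete estradiol and inhibin. The 9 samples were 3 of early atretic, 3 of late atretic and 3 of healthy follicles, atresia being the breakdown by which most follicles are lost before ovulation. No treatment, genotype or age is given in the labels, and they do not say whether samples came from separate animals, so a p-value measures only the spread between these samples.

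Inhibins and activins are dimers built from shared subunits. An alpha subunit with a beta subunit makes an inhibin, which lowers the secretion of follicle-stimulating hormone by the pituitary, and a pair of beta subunits makes an activin, which raises it. Activin binds a type II receptor, which recruits and phosphorylates a type I receptor that in turn activates SMAD2 and SMAD3. Follistatin and FSTL3 bind activin and keep it from its receptors, while inhibin, held by the co-receptor betaglycan, competes with activin for the type II receptors. Granulosa cells of growing follicles are the main source of inhibin in the female.

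Each of the authors' deposited tables gives 1 mean normalized read count per group, with a log2 fold change of the first group over the second, a p-value and a Benjamini-Hochberg adjusted p. Only these group means were used, so library depths are unknown and overlap between single samples could not be examined. Summed over all genes, the means of a group came to between 13141820 and 14490733 normalized counts in the authors' deposited tables. A gene was called at an adjusted p below 0.05. For the comparisons against healthy follicles, the share of all tested genes with an unadjusted p below 0.05 was not worked out. Counts of genes at that unadjusted p therefore stand there without a background and are not read as results. Each ± is a standard error worked back from the deposited log2 fold change and its p, taking the test to be a two-sided normal one. All 12 granulosa markers of a list that includes FSHR, AMH, FOXL2 and CYP19A1 had reads in all groups.

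In early atretic against healthy follicles, 4 of the 8 genes passed: INHA, INHBB and FST were lower and FSTL3 was higher, by the authors' deposited table. Each of the lower genes was at between 24.5% and 32.1% of its healthy mean, and FSTL3 was at 392% of its healthy mean. Over all 17386 tested genes 12.9% were called, 8.59% as higher and 4.35% as lower in early atretic follicles. The median log2 fold change was -0.82 over the 8 genes, against 0.02 over all tested genes. In late atretic against healthy follicles, FSTL3 was the 1 of the 8 genes that passed, as higher, where 4.38% of 17366 tested genes were called, 3.98% as higher and 0.397% as lower. In late against early atretic follicles, 0 of the 8 passed by the authors' deposited adjusted p and 0 had an unadjusted p below 0.05, where 0.108% of 17552 tested genes were called and 5.36% had such an unadjusted p. No other test tool was run, since only group means were used.

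**Figure D1:**
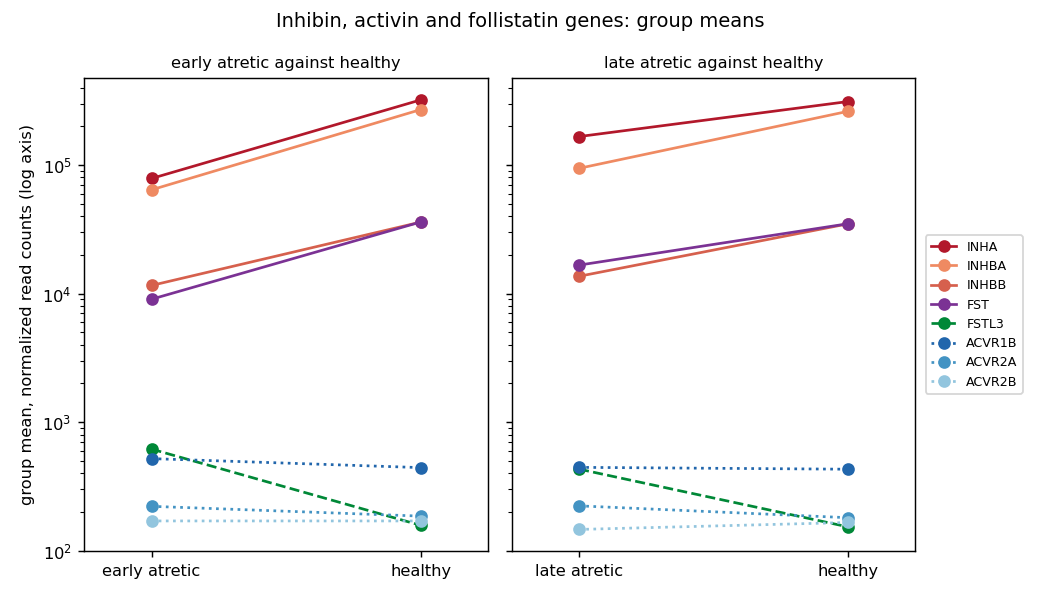
Group means of the 8 genes in normalized read counts on a log axis, in the table of early atretic against healthy follicles (left) and of late atretic against healthy follicles (right); each point is 1 group mean of 3 samples with no error, and lines join the means of 1 gene. INHA, INHBA, INHBB and FST lie lower in the atretic group of both panels, FSTL3 lies higher, and the receptor genes (dotted) are nearly level.

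INHA encodes the alpha subunit, which inhibins have and activins lack. In the authors' deposited table the INHA mean was 78598 normalized counts in early atretic follicles, against 321220 in healthy follicles. It fell by 2.03 ± 0.45 on the log2 scale (adjusted p = 0.000225, by the authors' deposited table). The INHA mean was 166575 in late atretic follicles, against 312046 in healthy follicles. That is 53.4% of the healthy mean, and the log2 fold change of -0.91 ± 0.58 did not pass (adjusted p = 0.629, by the authors' deposited table). The late atretic mean therefore lay between the other 2 groups. Late against early atretic, INHA had a mean of 174243 against 79360, a log2 fold change of 1.13 ± 0.68 (unadjusted p = 0.0973, adjusted p = 0.997, by the authors' deposited table). The 95% interval of that difference, from -0.21 to 2.48, includes 0, so the early and the late atretic levels were not shown to differ.

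INHBA encodes the beta A subunit, shared by inhibin A and activin A. By the authors' deposited table the INHBA mean was 64139 normalized counts in early atretic follicles, against 270038 in healthy follicles. Its log2 fold change of -2.07 ± 1.00 was as large as that of INHA but did not pass (unadjusted p = 0.0377, adjusted p = 0.174, by the authors' deposited table). The INHBA mean was 94270 in late atretic follicles, against 262049 in healthy follicles, and the log2 fold change of -1.48 ± 0.78 did not pass either (adjusted p = 0.451, by the authors' deposited table). Late and early atretic follicles had INHBA means of 98585 and 64786 in the authors' deposited table of that comparison, and the 95% interval of the log2 difference ran from -2.09 to 3.30.

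INHBB encodes the beta B subunit, shared by inhibin B and activin B. The INHBB mean was 11562 normalized counts in early atretic follicles, against 35974 in healthy follicles, and it fell by 1.64 ± 0.49 on the log2 scale (adjusted p = 0.0107, by the authors' deposited table). Late atretic follicles had an INHBB mean of 13628, against 34897 in healthy follicles, with a log2 fold change of -1.36 ± 0.65 (unadjusted p = 0.0369, adjusted p = 0.343, by the authors' deposited table). Of the 3 subunit genes, INHBB had the smallest log2 difference between late and early atretic follicles, at 0.29 ± 0.66 by the authors' deposited table, with an interval from -1.01 to 1.59.

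Reads of the 3 subunit genes together made up 1.15% of all normalized counts in early atretic follicles, against 4.33% in healthy follicles. In late atretic follicles they made up 2.09%, against 4.32% in healthy follicles in the table of that comparison. These are shares of reads and do not allow for the lengths of the transcripts.

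FST encodes follistatin, which binds activin nearly irreversibly. The FST mean was 9034 normalized counts in early atretic follicles, against 36036 in healthy follicles, and it fell by 2.00 ± 0.51 on the log2 scale (adjusted p = 0.00202, by the authors' deposited table). Late atretic follicles had an FST mean of 16648, against 34958 in healthy follicles, and the log2 fold change of -1.07 ± 0.65 did not pass (adjusted p = 0.588, by the authors' deposited table). Its late atretic mean also lay between the other 2 groups, and late against early atretic the log2 fold change was 0.93 ± 0.73 (unadjusted p = 0.198, by the authors' deposited table), with an interval from -0.49 to 2.36.

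FSTL3, which encodes a follistatin-like protein that binds activin and myostatin, moved the other way. Its mean was 616 normalized counts in early atretic follicles, against 157 in healthy follicles, and it rose by 1.97 ± 0.28 on the log2 scale (adjusted p = 9.8e-10, by the authors' deposited table). Late atretic follicles had a mean of 430, against 153 in healthy follicles, a rise by 1.49 ± 0.48 (adjusted p = 0.0479, by the authors' deposited table). That late call lies just inside the threshold, and it was lost when fold changes were centred on the median of all tested genes, when p-values were adjusted over the upper part of genes by mean only, and when a pseudocount was added. FSTL3 had a mean of 452 in late and 623 in early atretic follicles (log2 fold change -0.46 ± 0.44, unadjusted p = 0.289, by the authors' deposited table).

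The 3 receptor genes did not pass in any of the 3 comparisons, and 0 of them had an unadjusted p below 0.05 in the authors' deposited tables. ACVR1B, the type I receptor of activin also called ALK4, had a mean of 520 in early atretic follicles, against 442 in healthy follicles (log2 fold change 0.23 ± 0.17, by the authors' deposited table). ACVR2A, a type II receptor, had a mean of 221 in early atretic follicles, against 185 in healthy follicles (log2 fold change 0.25 ± 0.21, by the authors' deposited table). ACVR2B, the other type II receptor, had a mean of 170.1 in both groups (log2 fold change 0.0014 ± 0.23, by the authors' deposited table). For late atretic against healthy follicles the authors' deposited table gave log2 fold changes of 0.05 ± 0.29 for ACVR1B, 0.31 ± 0.35 for ACVR2A and -0.18 ± 0.28 for ACVR2B. The 95% intervals for early atretic against healthy ran from -0.10 to 0.56 for ACVR1B, from -0.16 to 0.66 for ACVR2A and from -0.45 to 0.45 for ACVR2B. A fold change of 2, which is 1 on the log2 scale, lies outside all of them, and for late atretic against healthy it lies outside those of ACVR1B and ACVR2B and just outside that of ACVR2A, which ran from -0.38 to 0.998.

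**Figure D2:**
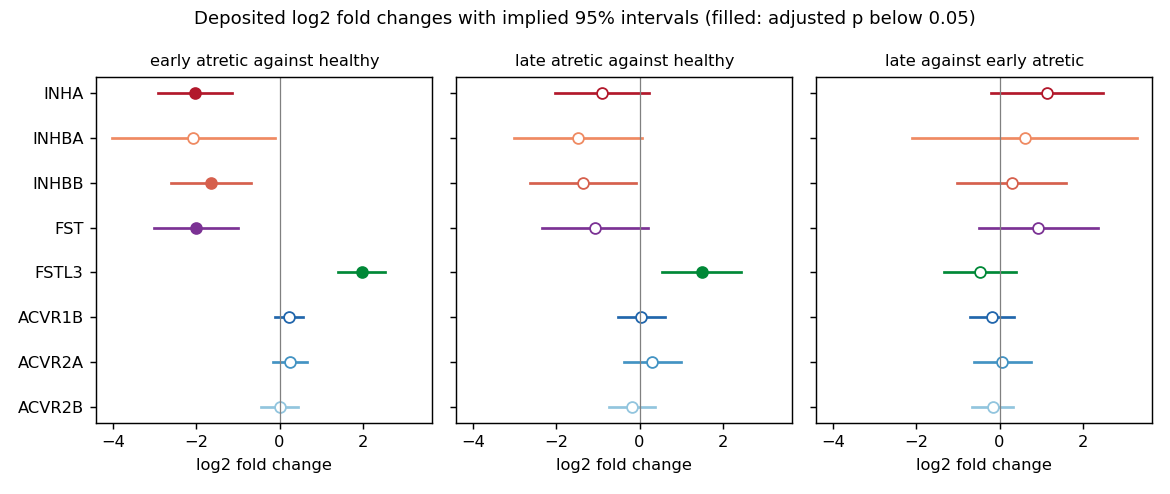
Deposited log2 fold change of each gene in the 3 comparisons, with the 95% interval from the implied standard error; filled points passed an adjusted p below 0.05. The interval of INHBA, from -4.03 to -0.12 in early atretic against healthy follicles, is the widest of the 8, and the receptor genes have the narrowest.

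INHA, INHBA, INHBB and FST had wider errors than most genes with many reads. Among 2400 genes with means of at least 1000 in both early atretic and healthy follicles, the median implied error was 0.19 on the log2 scale. The errors of INHA, INHBB, FST and INHBA in that comparison lay at percentiles 97.0, 98.0, 98.3 and 99.7 of those genes. In late atretic against healthy follicles their errors lay at percentiles 95.6, 97.4, 97.5 and 99.2 of 2392 genes, whose median was 0.26. The genes nearest to FST and INHBB in abundance varied more widely: for 125 genes with average means between 10000 and 31623 in the early comparison, percentile 95 of the error was 0.73, above the errors of FST and INHBB. INHA and INHBA had higher average means. The nearest bin below them, 22 genes between 31623 and 100000, had percentile 95 at 0.47 in the early comparison. The error of INHBA, 1.00, lay above that value and that of INHA, 0.45, just below it. FSTL3, with an average mean between 100 and 1000, lay at percentile 70.3 of its abundance class in the early and 88.8 in the late comparison. Which sample or group gives this spread was not tested, since the tables hold group means.

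**Figure D3:**
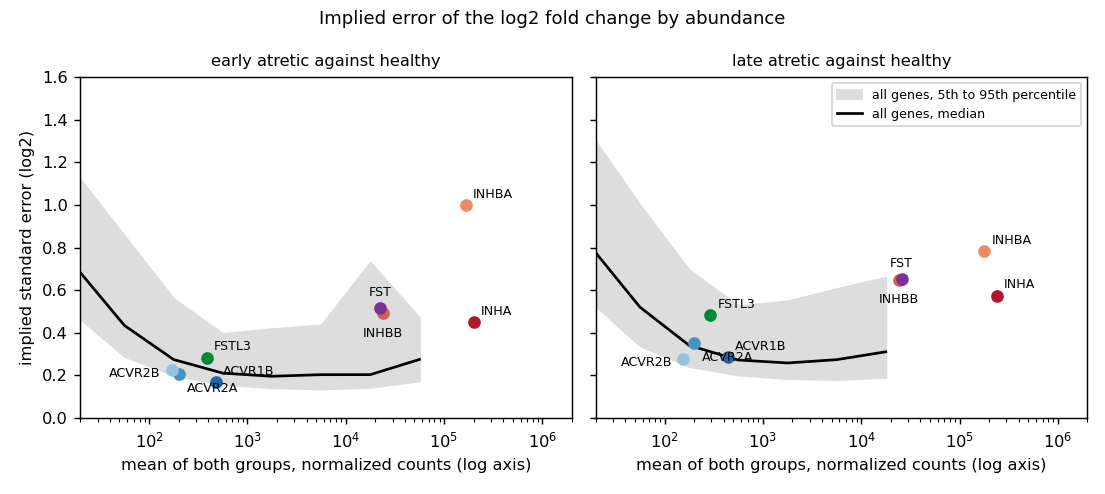
Implied standard error of the log2 fold change against the mean of both groups on a log axis, for the 8 genes (points, labelled) over the median (line) and the range from percentile 5 to 95 (grey) of all genes in bins of abundance with at least 20 genes. INHBA stands highest, with an error of 1.00 in early atretic and 0.78 in late atretic against healthy follicles.

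A ratio of 2 genes within a table does not depend on how the table was scaled, and its change between groups does not depend on transcript length. Such ratios are given as values of the group means with no test. There were 1.23 INHA reads per INHBA read in early atretic follicles, against 1.19 in healthy follicles, a log2 change of 0.04. Late atretic follicles had 1.77, against 1.19 in healthy follicles, a log2 change of 0.57. There were 0.141 FST reads per INHBA read in early atretic, against 0.133 in healthy follicles, and 0.177 in late atretic, against 0.133 in healthy follicles, so these log2 changes were 0.08 and 0.40. Relative to each other, the antagonists changed by far more: there were 14.7 FST reads per FSTL3 read in early atretic follicles, against 229 in healthy follicles, a log2 change of -3.97. Late atretic follicles had 38.7, against 229 in healthy follicles, a log2 change of -2.56.

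**Figure D4:**
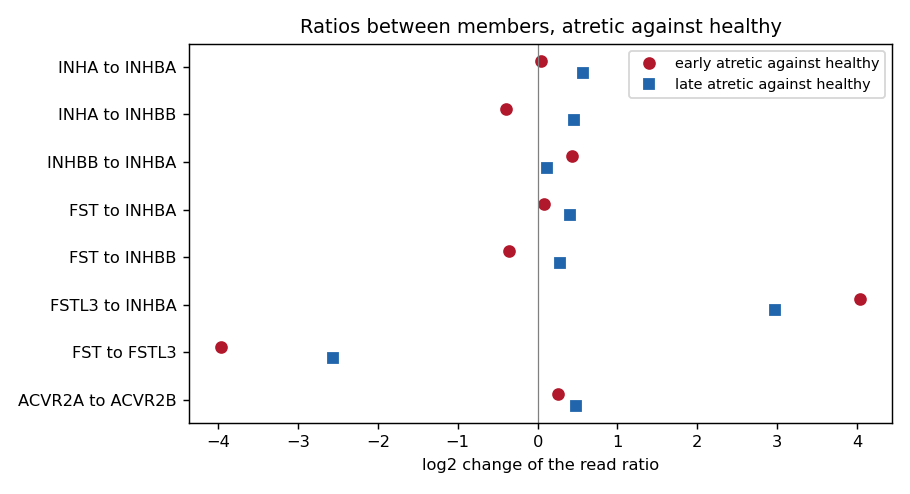
Log2 change of the read ratio of 8 pairs of genes, in early atretic (circles) and late atretic (squares) against healthy follicles, from group means with no error. The pairs with FSTL3 lie far from 0, with FSTL3 to INHBA at 4.04 and 2.97, and the pairs among subunits and FST lie between -0.39 and 0.57.

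The fall of INHA, INHBB and FST went along with lower granulosa markers. Of the 12 granulosa markers, 8 were lower and 1 was higher in early atretic against healthy follicles in the authors' deposited table, and their summed means were 137767 against 320065 normalized counts. Both sums are mostly SERPINE2, with a mean of 106490 in early atretic against 245253 in healthy follicles (by the authors' deposited table). The median log2 fold change of the 12 markers was -1.12, which is nearer to 0 than that of INHA by 0.91 and that of FST by 0.88. Single markers ran from -2.21 (CYP19A1, not called) to 0.65 (CDH2) in the authors' deposited table. Among them HSD17B1 fell by 2.02 ± 0.51, about as far as INHA and FST. In late atretic against healthy follicles 1 marker was lower, the summed means were 229267 against 311111, and the median was -0.58. Here SERPINE2 had a mean of 185106 in late atretic against 238463 in healthy follicles (by the authors' deposited table). Over all tested genes 4.35% were called lower and 8.59% higher in the early comparison, and 0.397% and 3.98% in the late one. In these bulk samples, fewer cells of a type and less RNA per cell cannot be told apart.

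Macrophage and stromal markers were higher alongside FSTL3 in both comparisons against healthy follicles. In the authors' deposited table, 6 of 11 macrophage and monocyte markers tested were higher in early atretic, and 6 of 10 in late atretic against healthy follicles. For this and the following lists, the shares over all tested genes were 8.59% higher and 4.35% lower in the early comparison. In the late comparison they were 3.98% and 0.397%. The summed means of the macrophage list were 3149 normalized counts in early atretic against 422 in healthy follicles, and 6114 in late atretic against 410.3 in healthy follicles. Of 7 stromal and fibroblast markers 5 were higher in the early and 4 in the late comparison, with summed means of 12716 against 2925 and of 16097 against 2837. Between the atretic groups the values parted. FSTL3 had a mean of 452 in late against 623 in early atretic follicles. The macrophage sum was 6384 against 3176 and the stromal sum 16919 against 12884. Neither FSTL3 nor a marker of these lists was called there. Endothelial markers summed to 2954 in early atretic against 2010.0 in healthy follicles, and to 1721 in late atretic against 1953 in healthy follicles, with 2 and 1 of 7 higher. The median log2 fold change of these 7 was 2.00 in the early and 1.77 in the late comparison of the authors' deposited table, so that the late sum and median differ in sign. The late sum is mostly VWF, the von Willebrand factor gene, with a mean of 1174 in late atretic against 1722 in healthy follicles (by the authors' deposited table). Leukocyte, T and B cell markers summed to 400.2 against 337 and to 620 against 328, with 0 of 6 called in either comparison at the authors' deposited adjusted p and 0 at an unadjusted p below 0.05. These sums are mostly PTPRC, with a mean of 359 in early atretic against 309 in healthy follicles. In the late comparison PTPRC had a mean of 556 in late atretic against 301 in healthy follicles (by the authors' deposited table). The 5 theca markers found summed to 2968 in early atretic against 4339 in healthy follicles and to 3380 in late atretic against 4226 in healthy follicles, with 1 called lower in the early and none called in the late comparison, which had 1 higher at an unadjusted p below 0.05 by the authors' deposited table. The theca marker called lower was ALPL, at 1284 in early atretic against 2951 in healthy follicles in the authors' deposited table. STAR, which brings cholesterol into mitochondria for steroid synthesis, was at 717 in early atretic against 57.9 in healthy follicles with no p-value given, and at 1286 in late atretic against 56.5 in healthy follicles (adjusted p = 0.0609, by the authors' deposited table). Over the theca markers tested the median log2 fold change was -0.59 in the early and -0.57 in the late comparison of the authors' deposited table. These medians cover different genes, 4 in the early and 5 in the late comparison. STAR, with a log2 fold change of 3.63 and no p-value, is left out of the early median only, so the 2 medians cannot be compared. Oocyte markers summed to 7.08 in early atretic against 6.22 in healthy follicles and to 22.3 in late atretic against 6.04 in healthy follicles, and OOSP2 was the 1 marker of all these lists that was listed at 0 in all groups. The part of these cells in the values of the 8 genes was not tested.

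Other genes of the pathway were taken from 6 lists with 64 genes, of which 61 were found. Of 57 tested, 11 were higher and 7 lower in early atretic against healthy follicles, and 5 were higher and 1 lower in late atretic against healthy follicles in the authors' deposited table. Over all tested genes 8.59% were higher and 4.35% lower in the early comparison, and 3.98% and 0.397% in the late one. These shares also stand beside the counts of each list below. The median log2 fold change of the tested list genes was 0.32 in the early and 0.26 in the late comparison, against 0.02 and 0.03 over all tested genes. In late against early atretic follicles 1 of 58 tested genes was called, against 0.108% of all tested genes.

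Among 7 receptors and co-receptors, ACVR1, a type I receptor also called ALK2, was the 1 that passed, in the early comparison. Over all tested genes 12.9% were called there, so 1 of 7 is near that share. ACVR1 rose by 0.72 ± 0.19 in early atretic follicles, to a mean of 417 against 253 in healthy follicles (adjusted p = 0.00275, by the authors' deposited table). Its late log2 fold change of 0.63 ± 0.23 did not pass (adjusted p = 0.104, by the authors' deposited table). TGFBR3, which encodes betaglycan, had means of 1724 in early atretic and 1651 in healthy follicles, and its log2 fold change of 0.06 ± 0.46 did not pass (by the authors' deposited table). Its interval is wide, and in late atretic follicles TGFBR3 had a mean of 2262, against 1610 in healthy follicles (log2 fold change 0.49 ± 0.58, by the authors' deposited table).

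Of 16 SMADs and SMAD regulators, 5 were higher and 1 lower in early atretic, and 3 were higher and 0 lower in late atretic against healthy follicles, with 1 lower at an unadjusted p below 0.05 in the authors' deposited table. SMAD2, which carries the activin signal to the nucleus, was the lower one, at a mean of 3484 in early atretic against 6828 in healthy follicles and a fall by 0.97 ± 0.25 (adjusted p = 0.00168, by the authors' deposited table). For SMAD2 the late log2 fold change was -0.49 ± 0.24 (adjusted p = 0.364, by the authors' deposited table). SMAD3 (0.56 ± 0.36) and SMAD4, the partner SMAD (0.02 ± 0.17), did not pass in the early comparison of the authors' deposited table. PMEPA1, an inhibitor that binds SMAD2 and SMAD3, had a mean of 356 in early atretic against 74.2 in healthy follicles and rose by 2.26 ± 0.25, and in late atretic follicles it rose by 1.90 ± 0.38 (by the authors' deposited table). BAMBI, a decoy receptor without a kinase, rose by 2.25 ± 0.45 in early atretic follicles, and its late log2 fold change of 1.31 ± 0.63 did not pass (by the authors' deposited table). The endocytic adaptor gene DAB2 rose by 1.44 ± 0.49 in early and by 2.02 ± 0.43 in late atretic follicles, and FKBP1A, which binds type I receptors, rose by 0.82 ± 0.19 in early atretic follicles (by the authors' deposited table). The late log2 fold change of FKBP1A was 0.65 ± 0.30 (adjusted p = 0.315, by the authors' deposited table). SMAD7, an inhibitory SMAD, named after its values were seen, rose by 3.36 ± 1.14 in early and 3.02 ± 0.81 in late atretic follicles (by the authors' deposited table).

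No follistatin relative or other antagonist of 8 tested passed in any comparison by the authors' deposited adjusted p. Over all tested genes 12.9% were called in the early and 4.38% in the late comparison against healthy follicles. At an unadjusted p below 0.05 in the authors' deposited table, 2 antagonists were higher and 2 lower in early atretic and 1 higher in late atretic against healthy follicles. The share of all tested genes at that unadjusted p was not worked out for these comparisons. Of 8 tested genes of the list of other ligands, BMP6 and BMP4, bone morphogenetic proteins, were higher in both comparisons. BMP6 had a mean of 322 in early atretic against 29.0 in healthy follicles and rose by 3.47 ± 0.62, and in late atretic follicles by 3.76 ± 0.65 (by the authors' deposited table). BMP4 rose by 1.66 ± 0.35 in early and by 1.84 ± 0.46 in late atretic follicles (by the authors' deposited table). Of 4 proprotein convertases, the proteases that cleave precursors such as the inhibin subunits, FURIN rose by 0.58 ± 0.17 in early atretic follicles, and its late log2 fold change of 0.22 ± 0.21 did not pass (by the authors' deposited table). FURIN was the 1 of 4 called in the early comparison, where 12.9% of all tested genes were called. At an unadjusted p below 0.05, 2 convertases were higher and 1 was lower in the early comparison. The lower one, named after its values were seen, was PCSK5 (-1.14 ± 0.45, adjusted p = 0.0769, by the authors' deposited table).

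The last list held 14 receptors and transcription factors of granulosa cells, among them NR5A1, NR5A2 and GATA4, which act at the inhibin alpha promoter in rodents. Of these, 6 were lower and 2 higher in early atretic, and 1 was lower and 0 higher in late atretic against healthy follicles, with 1 higher and 5 lower at an unadjusted p below 0.05 (by the authors' deposited table). This list shares 6 genes with the granulosa markers above. FSHR, the receptor of the hormone that drives inhibin production, had a mean of 2560 in early atretic against 5720 in healthy follicles and fell by 1.16 ± 0.21, and in late atretic follicles the log2 fold change was -0.44 ± 0.35 (by the authors' deposited table). ESR2, estrogen receptor beta, fell by 1.35 ± 0.40 in early and by 1.80 ± 0.46 in late atretic follicles (by the authors' deposited table). The other lower genes of the early comparison, named after their values were seen, were FOXL2 (-1.07 ± 0.36), GATA6 (-0.99 ± 0.32), NR5A1 (-0.92 ± 0.33) and NR5A2 (-0.91 ± 0.29), each a log2 fold change of the authors' deposited table. RUNX1 rose by 0.80 ± 0.19 and RUNX2 by 2.82 ± 0.48 in early atretic follicles, both encoding runt-family transcription factors (by the authors' deposited table). Against healthy follicles the late log2 fold changes were 0.32 ± 0.27 for RUNX1 and 1.16 ± 0.49 for RUNX2, and neither passed (adjusted p = 0.832 and 0.220, by the authors' deposited table). RUNX2 was the 1 gene of these lists that passed between the atretic groups, with a mean of 1339 in late against 4218 in early atretic follicles and a fall by 1.66 ± 0.39 (adjusted p = 0.0350, by the authors' deposited table).

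**Figure D5:**
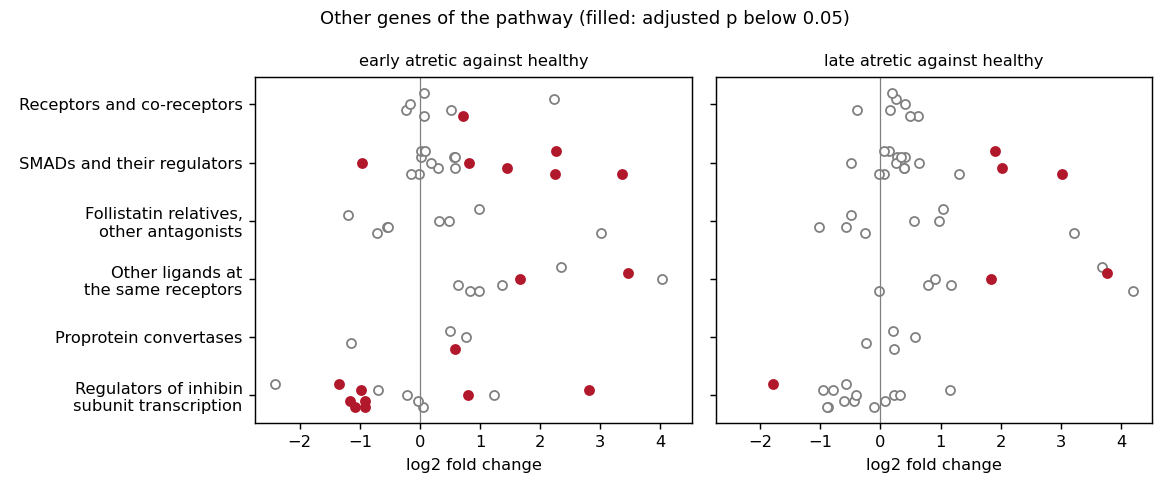
Deposited log2 fold changes of the tested genes of 6 pathway lists in early atretic (left) and late atretic (right) against healthy follicles; each point is 1 gene, set apart vertically only for legibility, and filled points passed an adjusted p below 0.05. In the left panel the called SMAD regulators lie right of 0 apart from SMAD2, and 6 of the 8 called genes of the bottom list lie left of 0.

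Likeness of pattern was measured as the distance between the pairs of log2 fold changes against healthy follicles, which rest on 3 group means and share the healthy samples. Of 8082 genes with a symbol and a highest group mean no lower than the median, FST was the fourth nearest to INHA, at a distance of 0.17. The others of the nearest 5 were PPP1R14A, an inhibitor of myosin phosphatase, GRIN2D, a glutamate receptor subunit, TLL2, a tolloid-like protease, and MCAM, a cell adhesion molecule. The same 4 genes and INHA were the nearest 5 to FST, with TLL2 first at 0.035. INHBA and INHBB ranked 37 and 48 in nearness to INHA, at distances of 0.57 and 0.60. These ranks take no account of the implied errors, which for INHBA were 1.00 in the early and 0.78 in the late comparison. The nearest to FSTL3 were RGS2, SOD3, DBN1, SELENOP and SHF, at distances from 0.07 to 0.09.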

How the data were processed

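Per the labels' protocols, RNA was extracted with Trizol and 3 µg per sample went into standard Illumina libraries. The 3 tables used here hold the authors' pairwise comparisons, with 21253 rows each, of which 452 repeat another row and were dropped. Per the file headers, the deposited group columns are read counts, and since they are not whole numbers they were taken to be mean counts per group after normalization by the authors, a signal comparable within 1 table. A group's values differed between tables by a near constant factor, with medians from 0.952 to 1.03, so each table was used with itself. Per the file headers, the deposited tables also hold the authors' log2 fold change, p-value and adjusted p-value. The adjusted p equalled a Benjamini-Hochberg adjustment over unique genes to within a relative difference of 7.7e-05. The sources used here do not name the tool behind these tests, the read counter, the annotation or its build, so no coordinates are printed. Bowtie 0.12.2, mm8 and mm9 (builds of the mouse genome) appear in the submitters' processing notes without a role.

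The implied standard error is the absolute log2 fold change over the z value of the p-value, which assumes a two-sided normal test. Its arithmetic was checked on simulated data (Python 3.11.15, pandas 2.3.3, scipy 1.17.1). Genes were matched by symbol, or by LOC number through a RefSeq table (assembly NDDB_SH_1) that served for names alone, as for CYP19A1. The 8 genes, the lists and the markers were chosen with earlier results of these data known. From each list the text names up to 4 called genes with the smallest adjusted p, and TGFBR3, SMAD2, SMAD3, SMAD4 and FSHR whatever they showed. Alternatives were a threshold of 0.01, a log2 fold change of at least 1, a filter on low means, repeated rows kept, other scalings and pseudocounts of 1 and 10.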

Additional observations from a re-analysis of the deposited data

How the results depend on the processing

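The calls of INHA, FST and FSTL3 in early atretic against healthy follicles held under every alternative threshold, filter and scaling tried, and that of INHBB held under all but the threshold of 0.01, where 3 of the 8 genes were called in place of 4. In late atretic against healthy follicles the count of 1, FSTL3, became 0 at a threshold of 0.01, with genes at or above the median mean only, and with fold changes centred on the median of tested genes. FSTL3 kept its direction there, and its late log2 fold change under pseudocounts of 1 and 10 was 1.49 and 1.44, with the call lost. ACVR2B, not called, changed sign when centred, to -0.018 in early atretic against healthy follicles. Of the other genes of the pathway, 11 in place of 18 were called at a threshold of 0.01 in early atretic against healthy follicles, and 0 in place of 1 in late against early atretic follicles, the cause being the threshold itself. Rescaling both groups to the same total moved all early atretic against healthy fold changes by 0.11 and changed the split of all calls to 1837 higher and 457 lower, against 1494 higher and 757 lower by the authors' scaling. It changed no call or direction among the 8 genes. All 24 ratio changes kept their direction at a pseudocount of 10, and the largest shift of a log2 ratio change was 0.067.

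No paired analysis was possible because the tables hold group means only, and leaving out single samples was not run for the same reason. The implied errors rest on an assumed test, and the depth of the libraries is unknown.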

Other observations

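The oocyte ligand genes GDF9 and BMP15 were near 0 in these granulosa cell samples. GDF9 had means of 4.73 normalized counts in early atretic against 3.03 in healthy follicles, and of 6.72 in late atretic against 2.94 in healthy follicles, in the authors' deposited table. BMP15 had means of 0.26 in early atretic and 3.42 in late atretic follicles and was listed at 0 in healthy follicles in the authors' deposited table. INHBC and NODAL were listed at 0 in all 3 groups, and INHBE was listed at 0 in early atretic and healthy follicles. ACVR1C, the type I receptor also called ALK7, had means of 4.40 in early atretic against 5.17 in healthy follicles in the authors' deposited table.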
